A study of Homo sapiens with 16 samples.

Results

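The genes described here are 39 members of the amino acid stress response and the unfolded protein response. They were chosen by symbol from the 25728 rows of a count table, from lists of the ATF4 pathway, serine and asparagine synthesis, amino acid transport and chaperones of the endoplasmic reticulum (ER). Of the 39 members, 38 had enough counts to be tested among 11863 genes. The exception was NUPR1, a small stress-induced chromatin protein, with 1 count in the second LAN-1 GSK126 day 2 library and 0 in the other 15 libraries, where 0 allows up to 3 counts, or 1.82 to 3.31 CPM (counts per 1e+06 counts of the scaled library total over tested genes). These limits cover counting error only.

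When amino acids run short or misfolded proteins fill the ER, kinases phosphorylate the translation factor eIF2alpha, which lowers protein synthesis in general while the mRNA of ATF4 is translated more. ATF4 is a transcription factor that raises amino acid transporters, the enzymes that make asparagine and serine, and tRNA synthetases. The ER has further sensors, ERN1 (IRE1alpha), which splices XBP1 mRNA, and ATF6, which is cleaved to a transcription factor, and these raise ER chaperones. In neuroblastoma, MYCN and ATF4 are known to act together on serine and glycine synthesis.

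The study treated Kelly and LAN-1 cells, established human neuroblastoma lines with amplified MYCN, with 2 uM GSK126 or with DMSO. GSK126 inhibits EZH2, the methyltransferase of the PRC2 complex that places the repressive histone mark H3K27me3. RNA was sequenced after 2 or 5 days, which gave 8 groups of 2 libraries: Kelly in DMSO at day 2, Kelly in DMSO at day 5, Kelly in GSK126 at day 2, Kelly in GSK126 at day 5, and the same 4 groups for LAN-1. All 8 groups carry the MYCN amplification, and no untreated group was analysed here. Whether the duplicates are separate cultures is not stated, so p-values measure only the spread between these libraries, which may be technical.

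Library totals ran from 912095 to 1666190 counts, lowest for the second LAN-1 GSK126 day 5 library. Duplicates varied by 1.11 to 2.04 times the variance of sampling reads, most in LAN-1 GSK126 day 5 (2.04) and Kelly DMSO day 2 (1.81). In these pairs the difference between duplicates ran with the GC content of genes (r = -0.315 and -0.281 across genes, which are not independent replicates). It did so less in LAN-1 DMSO day 2 (0.220) and Kelly GSK126 day 5 (0.176). In the remaining pairs r lay between -0.114 and 0.0853. EZH2 was lower in the mean of the GSK126 effects (log2 fold change -0.27 ± 0.06 SE, n = 2 per group, adjusted p = 0.00155 by edgeR), which does not measure its enzymatic inhibition. All 8 markers of sympathoadrenal neuroblasts had counts in both lines, summing to 4098 to 6146 CPM in Kelly and 3393 to 3907 CPM in LAN-1. DBH and TH, enzymes of noradrenaline synthesis, were near 0 in LAN-1, at most 4.90 CPM in any library. Markers of blood, endothelial, Schwann and epithelial cells summed to at most 8.51 CPM in any library.

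A promoter window was available for 34 of the 39 members, 52 windows in all, from RefSeq on GRCh38.p14, each reaching from 250 bases before to 50 bases after an annotated start. Both strands were searched for the C/EBP-ATF response element TGATGNAA, to which ATF4 with a C/EBP partner binds, and for the ER stress elements ERSE, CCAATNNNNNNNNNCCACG, and ERSE-II, which is ATTGG and CCACG with any 1 base between them. No match overlapped another. PSPH, SHMT2, SLC7A11, ALDH1L2 and NUPR1 had no window and were not searched. TGATGNAA stood in a window of 8 members, ASNS, SLC1A5, CHAC1, CEBPG, HERPUD1, SLC1A4, SLC3A2 and SLC7A1, and in 4.46% of all 27305 genes with a window (3.62% of 35116 windows). ERSE stood in windows of HSPA5, HSP90B1, CALR and XBP1, and in 0.0916% of all genes (0.0769% of windows). ERSE-II stood in windows of HERPUD1 and SDF2L1, and in 0.0696% of all genes (0.0541% of windows). The stretches below are shown as examples of each element, the first 3 for TGATGNAA and the last 3 for an ER stress element. Capitals mark the match, and each stretch reads 5′ to 3′ along the strand of its gene.
ASNS: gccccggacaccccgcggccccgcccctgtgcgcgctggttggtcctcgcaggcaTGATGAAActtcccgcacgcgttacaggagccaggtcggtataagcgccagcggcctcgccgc
CHAC1: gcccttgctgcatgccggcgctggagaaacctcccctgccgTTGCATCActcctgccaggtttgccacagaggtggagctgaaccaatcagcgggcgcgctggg
CEBPG: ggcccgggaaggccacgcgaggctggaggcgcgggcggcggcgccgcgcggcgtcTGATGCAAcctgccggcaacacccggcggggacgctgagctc
HSPA5: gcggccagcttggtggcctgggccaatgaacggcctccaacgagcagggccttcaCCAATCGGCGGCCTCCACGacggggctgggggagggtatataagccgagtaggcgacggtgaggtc
CALR: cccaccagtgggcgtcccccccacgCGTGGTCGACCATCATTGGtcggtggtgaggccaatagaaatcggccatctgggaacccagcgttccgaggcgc
HERPUD1: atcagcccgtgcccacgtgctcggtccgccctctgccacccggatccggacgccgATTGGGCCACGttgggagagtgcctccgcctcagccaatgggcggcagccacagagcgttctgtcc

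The ASNS stretch lies at chr7:97872414-97872531 on the minus strand, with the match beginning at -68 from the start. The CHAC1 stretch lies at chr15:40953221-40953324 on the plus strand, and its match, at -209, reads on the reverse strand. For CEBPG the stretch is chr19:33374016-33374112, plus strand, match at -42. For HSPA5 it is chr9:125241344-125241464, minus strand, match at -66. The CALR stretch, chr19:12938359-12938457 on the plus strand, holds its match on the reverse strand at -225. The HERPUD1 stretch, chr16:56931970-56932090 on the plus strand, begins its ERSE-II match at -117, and the same promoter held TGATGCAA on the reverse strand at -176. A match is a description of letters in a window, and no binding was measured.

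GSK126 lowered amino acid transporters and enzymes of asparagine, serine and folate metabolism in Kelly cells at day 5, while no ER chaperone was called. Of the 38 tested members, 10 were lower and 0 were higher, against 1.60% of all tested genes lower and 4.90% called in either direction. The members were chosen with earlier results of these data known, so such shares describe the list and are not a test of it. Here and below, a gene is called in the ordinary fit where the edgeR p-value, adjusted over all 11863 genes, is under 0.05. The 10 were 5 of 7 transporters, 4 of 7 asparagine, serine and folate enzymes, and 1 of 12 members of the ATF4 branch, ATF4 itself. In the fitted changes, 34 of 38 members were negative, with a median log2 fold change of -0.21 beside 0.01 over all tested genes.

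SLC7A5, which with SLC3A2 forms the exchanger that imports leucine and other large neutral amino acids, fell furthest beyond its error. Its level was 355 and 339 CPM in Kelly DMSO day 5 and 208 and 182 CPM in Kelly GSK126 day 5. Both treated libraries lay below all the other 6 Kelly libraries, whose lowest was 248 CPM. The log2 fold change was -0.83 ± 0.11 (SE, n = 2 per group, adjusted p = 1.50e-09 by edgeR). SLC7A5 lies at chr16:87863629-87903113 on GRCh37, minus strand.

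SLC3A2, the glycoprotein chain that carries SLC7A5 and SLC7A11 to the membrane, stood at 102 and 108 CPM in Kelly DMSO day 5 and 76.2 and 57.3 CPM in GSK126 day 5. The log2 fold change was -0.66 ± 0.16 (edgeR adjusted p = 0.00275). SLC7A11, the light chain of the cystine-glutamate exchanger, went from 36.6 and 44.4 CPM to 20.5 and 22.9 CPM. The treated libraries of both genes lay below every other Kelly library. For SLC7A11 the log2 fold change was -0.91 ± 0.25 (edgeR adjusted p = 0.0124).

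SLC7A1, a carrier of arginine and lysine, measured 274 and 333 CPM in DMSO and 223 and 216 CPM in GSK126 at day 5 in Kelly. The groups did not overlap, and the log2 fold change was -0.47 ± 0.10 (edgeR adjusted p = 9.84e-04). SLC1A5, a glutamine carrier, was lower by less, at -0.37 ± 0.12 with an edgeR adjusted p of 0.0499, at the edge of the threshold. Its treated libraries, at 166 and 137 CPM, lay below those of DMSO day 5, at 183 and 209 CPM, but overlapped DMSO day 2, where the lower library had 164 CPM. The other transporters were not called: SLC38A2, a sodium-coupled carrier of small neutral amino acids, was at -0.05 ± 0.10, and SLC1A4, a carrier of alanine, serine and cysteine, at 0.16 ± 0.28.

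**Figure D1:**
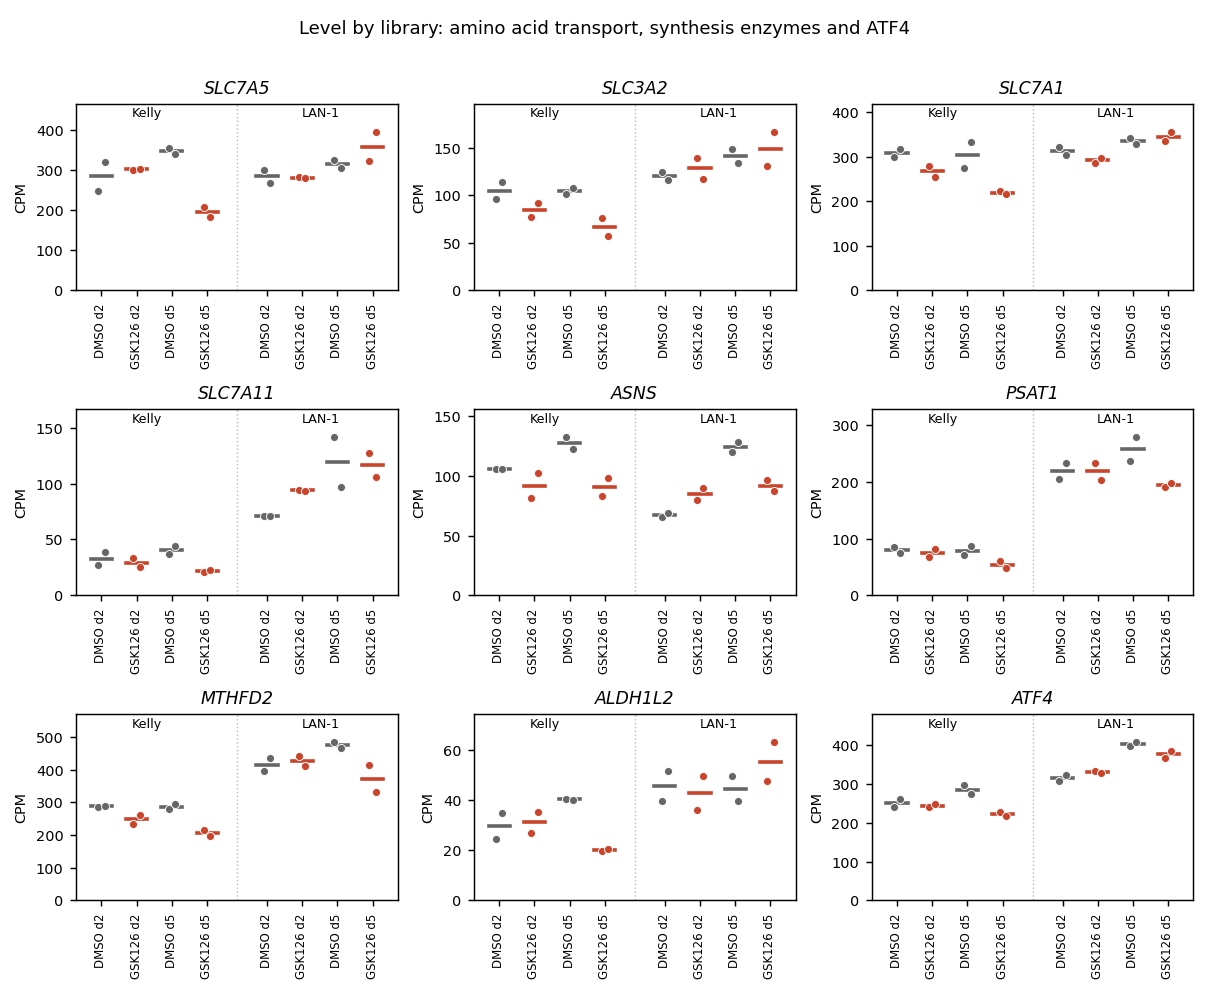
Level in CPM (vertical axes, from 0) of 4 transporters, 4 enzymes and ATF4 in each library (points) of the 8 groups (horizontal axis, DMSO grey and GSK126 red), with bars at the group means. In Kelly, the GSK126 day 5 points of SLC7A5 sit at 208 and 182 CPM, below all other Kelly libraries, while the LAN-1 GSK126 day 5 points sit at 322 and 395 CPM.

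Among the enzymes, MTHFD2, the mitochondrial methylenetetrahydrofolate dehydrogenase, measured 278 and 295 CPM in Kelly DMSO day 5 and 216 and 197 CPM in GSK126 day 5. The treated libraries lay below the other 6 Kelly libraries, and the log2 fold change was -0.48 ± 0.11 (edgeR adjusted p = 0.00138). ALDH1L2, the mitochondrial formyltetrahydrofolate dehydrogenase, had the largest fitted fall of the 10, from 40.4 and 40.1 CPM to 19.7 and 20.6 CPM. Its log2 fold change was -0.99 ± 0.25 (edgeR adjusted p = 0.00602). The same 2 treated libraries were again the lowest of the line.

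ASNS, which makes asparagine from aspartate, went from 132 and 122 CPM to 82.8 and 98.5 CPM, a log2 fold change of -0.48 ± 0.14 (edgeR adjusted p = 0.0227). These treated libraries overlapped those of Kelly GSK126 day 2, at 81.4 and 102 CPM. PSAT1, the aminotransferase of serine synthesis, stood at 71.7 and 86.3 CPM in DMSO and 60.7 and 48.1 CPM in GSK126, with a log2 fold change of -0.55 ± 0.17 (edgeR adjusted p = 0.0360). The enzymes before and after it in the serine pathway were not called, PHGDH at -0.20 ± 0.11 and PSPH at -0.41 ± 0.24. SHMT2, which splits serine in mitochondria, was at -0.02 ± 0.12.

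ATF4 mRNA measured 298 and 273 CPM in Kelly DMSO day 5 and 227 and 218 CPM in GSK126 day 5. The treated libraries were the lowest of the line, and the log2 fold change was -0.36 ± 0.10 (edgeR adjusted p = 0.0224). The protein is known to be controlled largely by translation, which these counts do not measure. The largest fitted change of any member belonged to CHAC1, an enzyme that breaks down glutathione, at -1.38 ± 0.52, and it was not called (edgeR adjusted p = 0.118). CHAC1 had only 15 and 13 counts in the DMSO libraries and 5 and 4 in the GSK126 libraries. The remaining 10 tested members of the branch lay between -0.48 (CEBPB, a bZIP partner of ATF4) and 0.10 (PPP1R15A, the phosphatase subunit that reverses eIF2alpha phosphorylation), none called.

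None of the 7 ER chaperone and degradation genes and none of the 3 sensors and factors was called in Kelly at day 5. At an unadjusted edgeR p under 0.05 the number was 0 as well, for which the share of all genes is not given here. HSPA5 (BiP), the main ER chaperone of the HSP70 family, measured 469 and 509 CPM in DMSO and 490.2 and 506 CPM in GSK126, a log2 fold change of 0.03 ± 0.09. The groups overlapped. The 7 chaperone genes had a median of -0.06 and ranged from -0.22 to 0.03. XBP1 was at -0.03 ± 0.16, ATF6 at -0.08 ± 0.12 and ERN1, at low counts, at -0.99 ± 0.75. The transsulfuration enzymes CBS and CTH, which turn homocysteine into cysteine, were at -0.15 ± 0.12 and -0.37 ± 0.46 and not called.

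**Figure D2:**
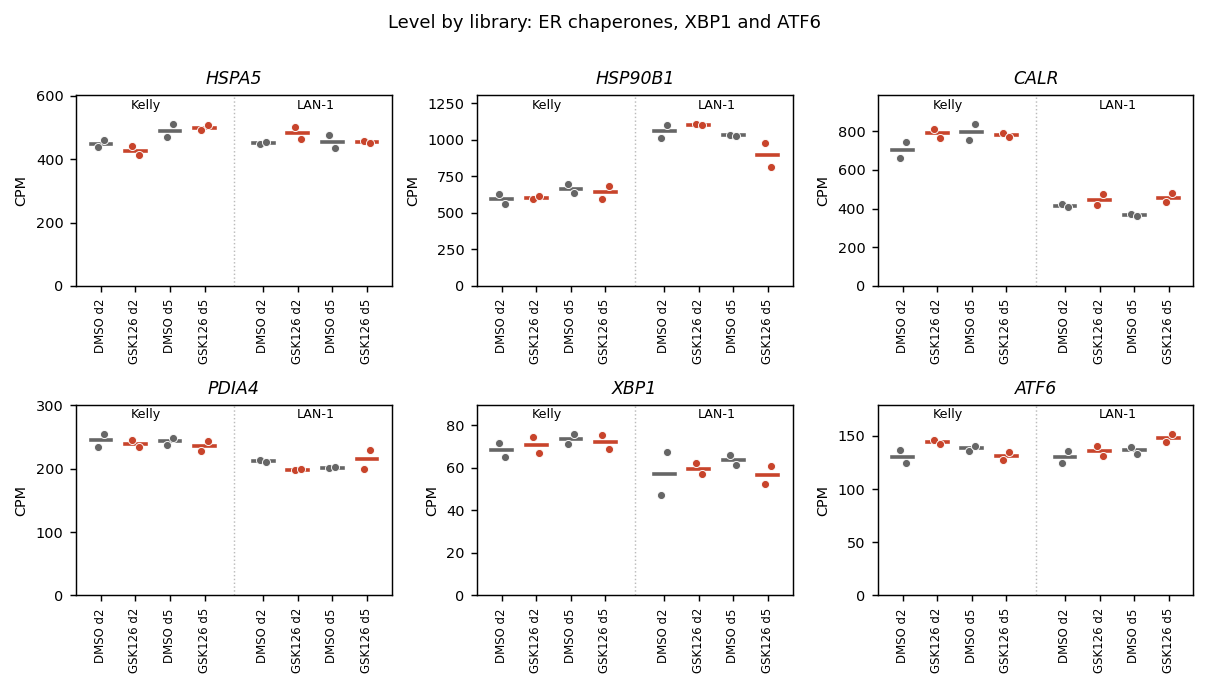
Level in CPM (vertical axes, from 0) of 4 ER chaperones and of XBP1 and ATF6 in each library (points) of the 8 groups (horizontal axis, DMSO grey and GSK126 red), with bars at the group means. HSPA5 stays between 412 and 509 CPM in all 16 libraries, whereas CALR is lower and HSP90B1 higher in every LAN-1 library than in any Kelly library.

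On GRCh37 the called transporters other than SLC7A5 lie at chr11:62623476-62656352 (SLC3A2, plus strand), chr4:139085251-139163503 (SLC7A11, minus), chr13:30083551-30169825 (SLC7A1, minus) and chr19:47278140-47291851 (SLC1A5, minus). The called enzymes lie at chr7:97480989-97501854 (ASNS, minus), chr9:80912041-80945009 (PSAT1, plus), chr2:74413299-74444692 (MTHFD2, plus) and chr12:105413562-105501421 (ALDH1L2, minus), and ATF4 at chr22:39915700-39918688 (plus). Counts were made per gene symbol, so they do not separate exons or UTRs of these genes.

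Single libraries weighed on the Kelly day 5 calls. SLC7A5 passed in all 16 fits that each left out 1 library, with a highest adjusted p of 4.07e-05. Each of the other 9 lost its call without at least 1 of the 4 Kelly day 5 libraries, with highest adjusted p from 0.0782 (ALDH1L2) to 0.517 (SLC1A5), and ATF4 without any of the 4. SLC1A5 was also lost without either LAN-1 DMSO day 5 library and with the replicate number as a block (0.0581). Fewer members were called without the second Kelly DMSO day 5 library or either Kelly GSK126 day 5 library. Calls over all tested genes were also fewest without that DMSO library. DESeq2 called 3, SLC7A5 (adjusted p = 5.16e-07), SLC7A1 (0.0127) and MTHFD2 (0.0160). With a GC trend removed, an alternative added after seeing the data, all 10 members passed. The split of all called genes moved from 391 higher and 190 lower to 412 higher and 572 lower. That fit tested, and adjusted over, only the 11692 genes with a GC value.

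Other measures moved in the same Kelly libraries. Of the 8 neuroblast markers, DBH, TH and MYCN were among those lower, and the sum over the list was 4098 and 4106 CPM in GSK126 day 5 against 5814 and 5943 CPM in DMSO day 5. MYCN itself measured 2399 and 2616 CPM in DMSO and 1901 and 1929 CPM in GSK126, a log2 fold change of -0.39 ± 0.08 (edgeR adjusted p = 1.81e-04). The 3 Schwann markers summed to 6.56 to 7.64 CPM in GSK126 and 1.82 to 2.24 CPM in DMSO at that day, near the level that a few counts give. The part of these differences in the fall of the transporters and enzymes was not tested. In bulk RNA, fewer cells of a type and less RNA per cell cannot be told apart.

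In LAN-1 at day 5 no transporter was called, and among all members 2 were lower and 0 higher, against 1.21% of all tested genes lower and 3.66% called either way. The median over members was 0.03, beside 0.00 over all genes. PSAT1 measured 237 and 279 CPM in LAN-1 DMSO day 5 and 192 and 198 CPM in GSK126 day 5, where both libraries lay below the other 6 of the line. The log2 fold change was -0.40 ± 0.12 (edgeR adjusted p = 0.0269). MTHFD2 went from 483 and 465 CPM to 413 and 331 CPM, a log2 fold change of -0.33 ± 0.10 (edgeR adjusted p = 0.0284), and its duplicates in GSK126 stood far apart. DESeq2 called 0 members. At an unadjusted edgeR p under 0.05 there were 8, for which the share of all genes is not given here. Both calls were lost without the second LAN-1 GSK126 day 5 library, the smallest of the series. They were also lost without the second LAN-1 DMSO day 5 library. Leaving out the first LAN-1 DMSO day 5 library lowered the number of calls, among members and over all tested genes alike. Leaving out the first LAN-1 GSK126 day 5 library raised it, again in both. Leaving out either Kelly GSK126 day 2 library ended the call of MTHFD2. Over these fits the highest adjusted p was 0.357 for PSAT1 and 0.470 for MTHFD2. In this comparison log2 fold changes ran with GC content across genes (r = 0.266), against -0.0297 in Kelly at day 5. With the GC trend removed both still passed, PSAT1 at -0.34 (adjusted p = 0.0324) and MTHFD2 at -0.26 (0.0406).

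Other members of LAN-1 at day 5 missed the threshold. ASNS was at -0.42 ± 0.14 (edgeR adjusted p = 0.0888) and CALR, a calcium-binding ER chaperone, at 0.30 ± 0.10 (edgeR adjusted p = 0.0514). SLC7A5 measured 326 and 304 CPM in DMSO and 322 and 395 CPM in GSK126, with a log2 fold change of 0.17 ± 0.10. These groups overlapped. The 7 transporters lay between -0.15 and 0.20.

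**Figure D3:**
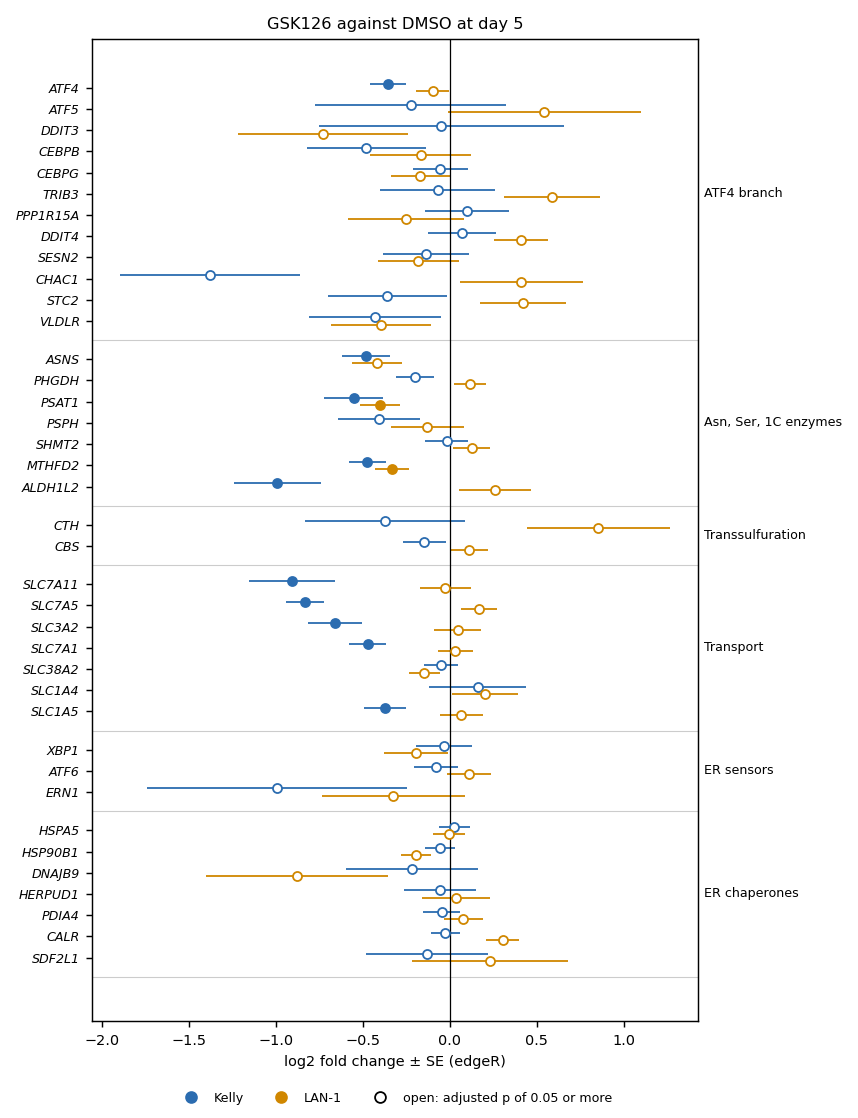
Log2 fold change of GSK126 against DMSO at day 5 (horizontal axis) with its SE (lines) for the 38 tested members (vertical axis, grouped by role) in Kelly (blue) and LAN-1 (orange). Filled points have an edgeR adjusted p under 0.05. Kelly shows 10 filled points, all left of 0, among the transporters, the enzymes and ATF4, and LAN-1 shows 2, PSAT1 and MTHFD2.

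The difference of the day 5 effect between lines was tested in the same model. It was higher in LAN-1 than in Kelly for 4 of 38 members and lower for 0, against 0.919% of all tested genes higher and 1.85% called either way. The 4 were SLC7A5 (log2 difference 1.00 ± 0.15, edgeR adjusted p = 8.34e-07), ALDH1L2 (1.25 ± 0.33, 0.0163), SLC7A1 (0.51 ± 0.14, 0.0389) and SLC3A2 (0.70 ± 0.21, 0.0475). In this comparison log2 differences ran with GC content across genes (r = 0.216). With the GC trend removed SLC7A5 (0.79), ALDH1L2 (1.41) and SLC7A1 (0.44) stayed called. SLC3A2 lost its call with the replicate number as a block (0.0548) and with the GC trend removed (0.0558), where SLC7A11 gained one (1.14, adjusted p = 0.00449). All 4 had fallen in Kelly and stood at 0.03 to 0.26 in LAN-1. There SLC3A2 measured 148 and 134 CPM in DMSO and 131 and 166 CPM in GSK126 at day 5, and ALDH1L2 49.4 and 39.5 CPM against 47.6 and 62.8 CPM. The LAN-1 groups overlapped in both genes. For ASNS, PSAT1 and MTHFD2 the lines differed by 0.06 ± 0.20, 0.15 ± 0.21 and 0.14 ± 0.14, none called. MYCN also differed between the lines (0.53 ± 0.11, edgeR adjusted p = 0.00118), and its part in these differences was not tested. SLC7A5 alone remained called in each of the 16 fits without 1 library. Fewer members were called without the second library of any of the 4 day 5 groups, or without the first Kelly GSK126 day 5 library. Calls over all tested genes were also fewest without the second Kelly DMSO day 5 library. DESeq2 called 1, SLC7A5 (1.43e-04).

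At day 2 no member was called in either line. In Kelly 0 of 38 passed, against 0.177% of all tested genes called at the same adjusted threshold, and DESeq2 called 0. At an unadjusted edgeR p under 0.05 there were 4, for which the share of all genes is not given here. Those 4 were the carriers SLC38A2 (-0.24 ± 0.10), SLC3A2 (-0.33 ± 0.14) and SLC7A1 (-0.21 ± 0.10) and the enzyme MTHFD2 (-0.21 ± 0.10). SLC7A5 was at 0.07 ± 0.10, with 301 and 304 CPM in GSK126 day 2 within the range of DMSO day 2, 248 and 322 CPM.

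In LAN-1 at day 2, 0 of 38 passed, against 0.152% of all tested genes called at the adjusted threshold, and DESeq2 called 0. At an unadjusted edgeR p under 0.05 there were 5, again without a share of all genes. The smallest p belonged to TRIB3, a pseudokinase that is a target and inhibitor of ATF4, with 11.5 and 13.6 CPM in DMSO and 32.6 and 24.0 CPM in GSK126. These groups did not overlap, and the log2 fold change was 1.17 ± 0.30 (edgeR adjusted p = 0.0934). With the GC trend removed it passed (1.14, adjusted p = 0.0398). The other 4, all positive, were DDIT4, SLC7A11, ASNS and STC2.

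The change of the effect from day 2 to day 5 was called for 1 member in Kelly, SLC7A5, at -0.90 ± 0.15 (edgeR adjusted p = 1.83e-05), against 0.379% of all tested genes. ALDH1L2 had a larger fitted difference, -1.02 ± 0.34, and was not called (edgeR adjusted p = 0.276). In LAN-1 the count was 0, against 0.539% of all tested genes called, and DESeq2 called 0. At an unadjusted edgeR p under 0.05 there were 5 members, a threshold to which that share does not apply. Without the first LAN-1 GSK126 day 5 library more calls were made, among members and over all tested genes alike. ASNS had the smallest p there, at -0.76 ± 0.21 (edgeR adjusted p = 0.0739).

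Averaged over lines and days, GSK126 lowered 3 members and raised 3, against 2.16% of all tested genes lower, 4.32% higher and 6.47% called either way. The lower ones were MTHFD2 (-0.25 ± 0.05, edgeR adjusted p = 2.52e-04), PSAT1 (-0.26 ± 0.07, 0.00988) and SLC7A1 (-0.19 ± 0.05, 0.0101). At day 2 MTHFD2 measured 285 and 289 CPM in Kelly DMSO and 234.5 and 261 CPM in Kelly GSK126, with no overlap, and 396 and 435 CPM against 442 and 411 CPM in LAN-1, with overlap. PSAT1 overlapped at day 2 in both lines, at 85.35 and 74.8 CPM against 67.96 and 82.3 CPM in Kelly and 206 and 234 CPM against 233 and 204 CPM in LAN-1. SLC7A1 did not overlap at day 2, at 298 and 317 CPM against 279 and 255 CPM in Kelly and 321 and 304 CPM against 286 and 298 CPM in LAN-1, but did in LAN-1 at day 5, at 342 and 329 CPM against 334 and 355 CPM. MTHFD2 passed in all 16 fits without 1 library and was the 1 member called by DESeq2 (0.00422). SLC7A1 was lost only without the second Kelly DMSO day 5 library (0.0870) among those fits.

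The higher ones were the stress effectors DDIT4 and TRIB3 and the chaperone CALR. DDIT4, an inhibitor of mTORC1, measured 30.5 and 35.9 CPM in Kelly DMSO day 2 and 42.9 and 44.7 CPM in Kelly GSK126 day 2. At day 5 the Kelly groups overlapped, with 53.8 and 45.6 CPM in DMSO and 65.6 and 38.96 CPM in GSK126. In LAN-1 DDIT4 stood at 77.5 and 57.0 CPM in DMSO and 93.03 and 90.5 CPM in GSK126 at day 2, and at 80.1 and 92.4 CPM against 105 and 127 CPM at day 5. It was thus higher in both GSK126 libraries in 3 of the 4 settings, and the mean log2 fold change was 0.33 ± 0.09 (edgeR adjusted p = 0.0149).

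TRIB3 had a mean log2 fold change of 0.52 ± 0.15 (edgeR adjusted p = 0.0208), with 1.17 and 0.59 in LAN-1 at days 2 and 5 and 0.41 and -0.07 in Kelly. In Kelly at day 2 it stood at 9.88 and 16.7 CPM in DMSO and 19.6 and 17.2 CPM in GSK126, without overlap. Its Kelly libraries overlapped at day 5, at 16.4 and 15.2 CPM in DMSO and 10.7 and 19.1 CPM in GSK126. In LAN-1 at day 5 they did not, at 14.6 and 28.6 CPM against 32.9 and 29.8 CPM, though the DMSO duplicates were far apart. CALR was higher by a small amount, 0.14 ± 0.04 (edgeR adjusted p = 0.0421). At day 2 its levels were 659.5 and 743 CPM in DMSO and 812 and 766 CPM in GSK126 in Kelly, without overlap, and 423 and 406 CPM against 419 and 473 CPM in LAN-1, with overlap. At day 5 its levels were 756 and 835 CPM in DMSO and 793 and 771 CPM in GSK126 in Kelly, and 373 and 361 CPM against 433 and 478 CPM in LAN-1. The CALR call held in 4 of the 16 fits without 1 library, and was lost without the expression filter (0.0771) and with the GC trend removed (0.168). DDIT4 lost its call in 4 of those 16 fits (highest adjusted p = 0.218, without the first Kelly GSK126 day 5 library), TRIB3 in 6 (0.200, without the second Kelly GSK126 day 5 library) and PSAT1 in 3 (0.0682, without the same library). Fewer members were called without the second Kelly DMSO day 5 or first Kelly GSK126 day 2 library. The same held without the second Kelly GSK126 day 5 or first LAN-1 DMSO day 5 library. Calls over all tested genes were also fewest without the first Kelly GSK126 day 2 library. With the GC trend removed, 8 members were lower and 2 higher, 10 in all, where the ordinary fit gave 3 and 3. Calls over all tested genes rose as well in that fit, from 768 in the ordinary fit. Their split by direction is not given here, so the gain is not read as particular to the members.

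From day 2 to day 5 in DMSO, 2 members rose in LAN-1 and 0 fell, against 0.118% of all tested genes higher and 0.438% called either way. ASNS went from 65.3 and 69.3 CPM to 119.8 and 129 CPM, so the days did not overlap. The log2 fold change was 0.88 ± 0.15 (edgeR adjusted p = 2.10e-05), and it passed in all 16 fits without 1 library and in DESeq2 (0.00257). SLC7A11 went from 71.1 and 71.3 CPM to 141 and 96.6 CPM, a log2 fold change of 0.76 ± 0.15 (edgeR adjusted p = 0.00113). That call rested on the first LAN-1 DMSO day 5 library (adjusted p = 0.757 without it), was also lost without the first LAN-1 DMSO day 2 library, and did not pass in DESeq2 (0.254).

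Over the 38 members, 29 were positive with time in LAN-1 DMSO, and the median log2 fold change was 0.14 beside -0.00 over all genes. At an unadjusted edgeR p under 0.05 there were 10. The share of all genes at that threshold is not given here, so this count does not show a rise of the set. ATF4 had 309 and 322 CPM at day 2 and 397 and 407 CPM at day 5, a log2 fold change of 0.35 ± 0.09 that was not called (edgeR adjusted p = 0.0616). With the GC trend removed ATF4 passed (0.40, adjusted p = 3.52e-04). The 7 ER chaperone and degradation genes had a median of 0.02. HSPA5 was at 0.02 ± 0.09.

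In Kelly DMSO, 0 of 38 members were called with time, against 0.438% of all tested genes, and DESeq2 called 0. At an unadjusted edgeR p under 0.05 there were 4, a threshold to which that share does not apply. ASNS was at 0.26 ± 0.13 and SLC7A5 at 0.27 ± 0.10 (edgeR adjusted p = 0.387). The difference of the time change between lines was called for 0 members, against 0.0253% of all tested genes, and DESeq2 called 0. Only the unadjusted edgeR p was under 0.05 for 3 members, and the share of all genes at that threshold is not given here. For ASNS that difference was 0.62 ± 0.20 (edgeR adjusted p = 0.446) and for SLC7A11 0.49 ± 0.27, so neither rise was shown to be particular to LAN-1. The day 5 DMSO libraries of a line enter both its time comparison and its day 5 GSK126 comparison, so the values of these comparisons are not independent. In LAN-1, ASNS stood at 80.0 and 89.7 CPM in GSK126 day 2 and 96.5 and 87.1 CPM in GSK126 day 5, between the DMSO libraries of both days.

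**Figure D4:**
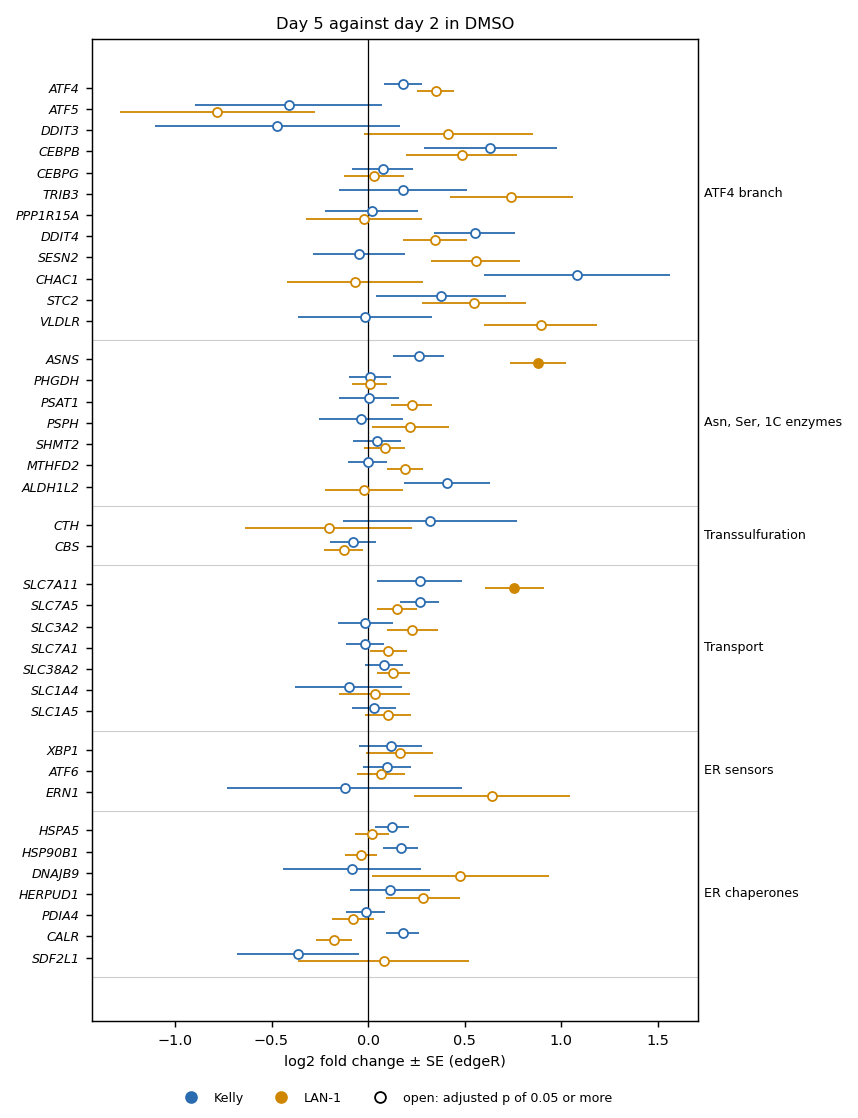
Log2 fold change of day 5 against day 2 in DMSO (horizontal axis) with its SE (lines) for the 38 tested members (vertical axis, grouped by role) in Kelly (blue) and LAN-1 (orange). Filled points have an edgeR adjusted p under 0.05. The 2 filled points are ASNS at 0.88 and SLC7A11 at 0.76, both in LAN-1.

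The lines themselves differed in most members. In DMSO, averaged over days, 19 members were higher and 6 lower in LAN-1 than in Kelly, against 33.5% of all tested genes higher, 34.2% lower and 67.7% called either way. The share of members called, 65.8%, was near that of all genes. The median log2 difference was 0.30 over members and -0.02 over all genes. A single culture line stands on each side, so the comparison describes Kelly and LAN-1 only.

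Genes of serine synthesis were higher in LAN-1. PSAT1 measured 71.7 to 86.3 CPM in the 4 Kelly DMSO libraries and 206 to 279 CPM in the 4 LAN-1 DMSO libraries, a log2 difference of 1.58 ± 0.09 (edgeR adjusted p = 1.12e-32). PHGDH, the first enzyme of the pathway, had 202 to 259 CPM in Kelly and 494 to 524 CPM in LAN-1, a log2 difference of 1.12 ± 0.07 (edgeR adjusted p = 2.60e-30). The lines did not overlap in either gene. SHMT2 (0.82 ± 0.08), MTHFD2 (0.63 ± 0.07) and ALDH1L2 (0.37 ± 0.15) were higher as well, while ASNS was lower (-0.34 ± 0.10, edgeR adjusted p = 0.00143) and PSPH was not called (0.28 ± 0.15).

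Of the transporters, SLC1A4 (log2 difference 1.38 ± 0.16), SLC7A11 (1.31 ± 0.13), SLC38A2 (0.92 ± 0.07) and SLC3A2 (0.31 ± 0.10) were higher in LAN-1. SLC7A5, SLC7A1 and SLC1A5 were not called (-0.08 ± 0.07, 0.08 ± 0.07 and -0.16 ± 0.08). CBS was higher (0.82 ± 0.08). In the ATF4 branch 7 of 12 were higher, ATF4 among them (0.41 ± 0.07, edgeR adjusted p = 8.10e-08), with DDIT4 at 0.90 ± 0.13, CHAC1 at 0.99 ± 0.30 and DDIT3 (CHOP), a factor of stress-induced cell death, at 1.17 ± 0.37. PPP1R15A was lower (-0.67 ± 0.19). ATF5, a bZIP factor related to ATF4, CEBPG, TRIB3 and SESN2, a sensor of leucine, were not called.

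The ER chaperones split by line. HSP90B1, the ER member of the HSP90 family, was higher in LAN-1, at 1013 to 1102 CPM in DMSO against 559.5 to 694 CPM in Kelly (log2 difference 0.73 ± 0.06, edgeR adjusted p = 2.86e-21). CALR was lower, at 361 to 423 CPM against 659 to 835 CPM (-0.94 ± 0.06, edgeR adjusted p = 1.26e-27). Neither overlapped between lines. SDF2L1, a cofactor of HSPA5 (-1.03 ± 0.27), DNAJB9, a J-domain cochaperone (-0.78 ± 0.29), and PDIA4, a disulfide isomerase (-0.24 ± 0.07), were lower too. HSPA5 (-0.05 ± 0.06) and HERPUD1, a gene of ER-associated degradation (0.25 ± 0.14), were not called. ERN1 was higher (1.28 ± 0.35), at 7.68 to 15.3 CPM against 2.43 to 5.98 CPM, and XBP1 and ATF6 were not called. Of these 25 calls, 21 also passed in DESeq2, all but DNAJB9, VLDLR, ALDH1L2 and CEBPB. Those 4 and DDIT3 each lost their call in 2 to 4 of the 16 fits without 1 library (highest adjusted p from 0.0989 to 0.252), and PPP1R15A without the second Kelly DMSO day 2 library (0.0934).

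**Figure D5:**
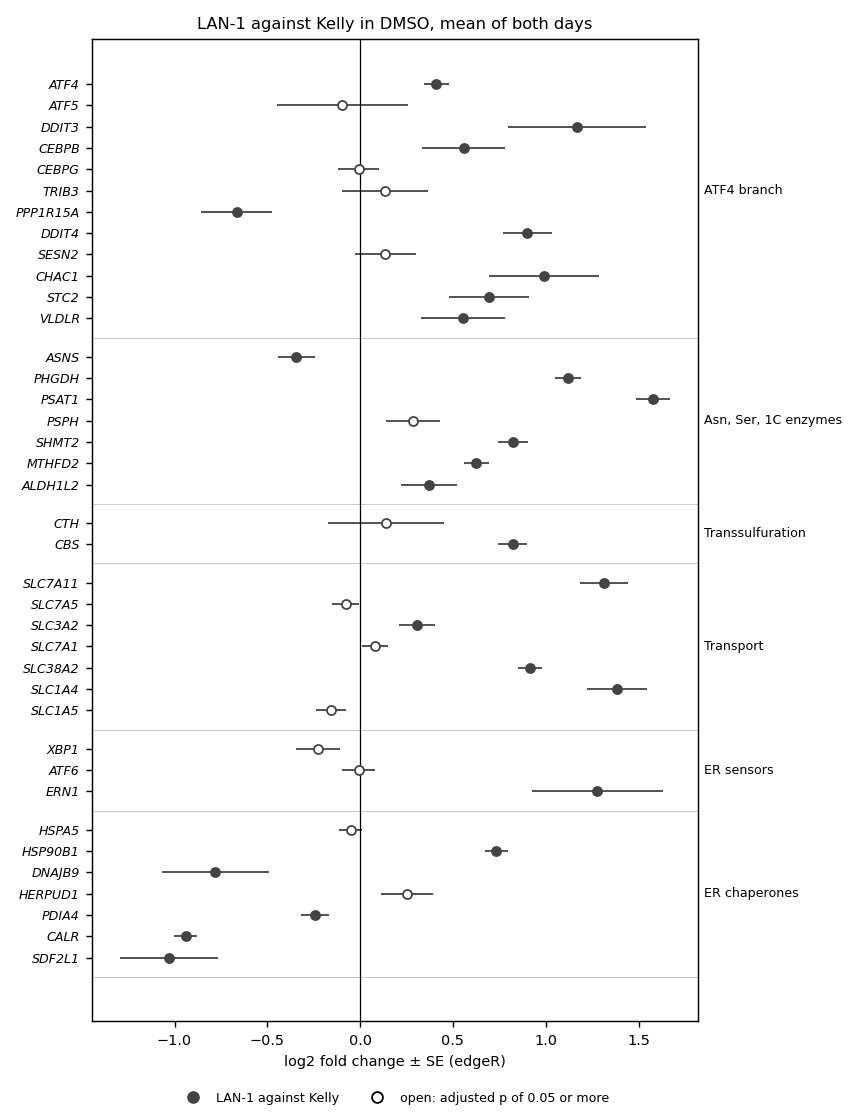
Log2 difference of LAN-1 from Kelly in DMSO, mean of both days (horizontal axis), with its SE (lines) for the 38 tested members (vertical axis, grouped by role). Filled points have an edgeR adjusted p under 0.05. The serine and folate enzymes lie right of 0, with PSAT1 at 1.58, while CALR at -0.94 and HSP90B1 at 0.73 lie on opposite sides.

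Further genes of the same pathways, 71 listed and 68 tested, were read beside the members. In Kelly at day 5, 5 of them were lower and 0 higher (7.35%, against 1.60% of all tested genes lower and 4.90% called either way), all of them among the 20 cytosolic tRNA synthetases, which charge tRNAs with amino acids and are in part targets of ATF4. They were SARS (-0.45 ± 0.10, edgeR adjusted p = 0.00183), YARS (-0.55 ± 0.14, 0.00428), GARS (-0.35 ± 0.09, 0.00924), AARS (-0.38 ± 0.11, 0.0219) and FARSB, the fifth, chosen after its value was seen (-0.43 ± 0.13, 0.0239). SARS measured 316 and 312 CPM in DMSO and 231 and 229 CPM in GSK126, with no overlap. None of 22 further tested ER genes and none of 10 genes of the eIF2alpha kinases, eIF2 and its exchange factor eIF2B was called in that comparison. The numbers at an unadjusted edgeR p under 0.05 were 1 and 0, again without a share of all genes.

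In LAN-1 at day 5, 3 of the 68 were lower and 1 higher (5.88%, against 3.66% of all tested genes). The synthetases LARS (-0.42 ± 0.10, edgeR adjusted p = 0.00615) and NARS (-0.42 ± 0.13, 0.0450) and the branched-chain aminotransferase BCAT1 (-0.38 ± 0.09, 0.00482) were lower. WFS1, an ER membrane protein, was higher (0.86 ± 0.26, edgeR adjusted p = 0.0371). The effect on AARS differed between lines (log2 difference 0.62 ± 0.15, edgeR adjusted p = 0.00802). In the mean over lines and days 7 of the 68 were lower, 5 of them synthetases, against 2.16% of all tested genes. In that mean 1 was higher, SLC6A9, a glycine carrier (0.54 ± 0.15, edgeR adjusted p = 0.0155), against 4.32%. Between the lines in DMSO, 29 were higher and 18 lower in LAN-1, a share of 69.1% that was near the 67.7% of all tested genes, among them the ER stress kinase EIF2AK3 (PERK), higher by 2.60 ± 0.19 on the log2 scale.

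Several members share sequence or position with other entries of the GENCODE annotation on GRCh37, which may differ from the annotation behind the counts. ASNS, ATF4, MTHFD2, PSAT1, PSPH, SLC7A5, HSPA5 and XBP1 have annotated pseudogenes named after them. Exons of ASNS overlap a lncRNA on the same strand over 49.3% of their bases, which no strand setting separates, and those of CBS a same-strand entry marked as an artifact over 36.8%. Exons of SLC1A5 overlap an opposite-strand lncRNA over 23.4%. Exons of DDIT3 overlap MARS1 on the opposite strand over 27.2% of their bases, those of ATF5 overlap NUP62 over 19.5%, and those of MTHFD2 overlap SLC4A5 over 11.6%. Whether the entry over CBS is a separate locus was not tested. No source used here states the annotation, the strand setting or how reads with several matches were counted. The counts of these members are thus uncertain by reads from such entries, whose share was not tested.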

How the data were processed

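Total RNA of 16 libraries (2 lines, 2 treatments, 2 days, 2 replicates each) was compared in 8 groups taken from the sample labels. The authors deposited 1 table of whole-number read counts per gene symbol, not normalized. Tools named in the submitters' processing notes were featureCounts, TopHat2 and FastQC, and the build GRCh37 (hg19). Versions, annotation, strand setting and multiple-match handling are not given in the sources used here. These counts entered edgeR 4.0.16 (R 4.3.3): filterByExpr at a minimum count of 10 (11863 genes kept), TMM, 1 mean per group over all 16 libraries (8 residual degrees of freedom), robust quasi-likelihood tests and Benjamini-Hochberg adjustment over all tested genes, called under 0.05. The common biological coefficient of variation was 5.31%. CPM are counts per 1e+06 of the TMM-scaled total over tested genes. Library totals of 912095 to 1666190 counts limit the precision of low genes. The script was tested on simulated data. The members and the lists of other genes and markers were chosen with earlier results of these data known. The text names all members, gives library values of the groups compared for those called in a treatment or time comparison (by rule at most 8 per comparison, by smallest adjusted p, to which PSAT1 and SLC1A5 were added in Kelly at day 5), and names up to 4 other pathway genes per comparison. Alternatives were DESeq2 1.42.0, its size factors (RLE) in edgeR, no filter, the replicate number as a block, each library left out, and, added after seeing the data, a loess GC trend as an offset. The GC fit tested only the 11692 genes with a GC value. Where a library was left out, the lone duplicate was assumed to vary like the other groups. Positions on GRCh37 came from GENCODE, and promoter windows from RefSeq on GRCh38.p14. Coordinates were not carried between builds.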

Additional observations from a re-analysis of the deposited data

Results flagged for a closer look

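Differences of the GSK126 effect between lines or days were tested as interaction contrasts in edgeR, and 5 of them passed after adjustment over all tested genes. Between lines at day 5, LAN-1 minus Kelly, the log2 difference was 1.00 for SLC7A5 (adjusted p = 8.34e-07), 1.25 for ALDH1L2 (0.0163), 0.51 for SLC7A1 (0.0389) and 0.70 for SLC3A2 (0.0475). All 4 genes had lower levels in both GSK126 libraries than in both DMSO libraries of Kelly at day 5. Between days in Kelly, day 5 minus day 2, the log2 difference for SLC7A5 was -0.90 (adjusted p = 1.83e-05), with GSK126 libraries at 301 and 304 CPM at day 2 and 208 and 182 CPM at day 5. Groups of 2 libraries are too small for a test of single outlying libraries.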

How the results depend on the processing

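Of 25 calls of members outside the comparison of lines, 25 were kept with RLE size factors, 24 without the filter, 23 with the replicate block, 23 with the GC trend removed and 7 in DESeq2, and none of these reversed; of the 25 calls between lines, 25, 25, 25, 25 and 21 were kept. At day 5 DESeq2 called 3 members in Kelly and 0 in LAN-1. It called 1 in the mean effect, 1 in the line difference and 1 with time in LAN-1 DMSO. With the GC trend removed, 1 member was called in LAN-1 at day 2 and 10 in the mean effect. Leaving out 1 library at a time gave, at day 5, 1 to 10 members in Kelly and 0 to 4 in LAN-1, 3 to 7 in the mean effect, 1 to 4 in the line difference, 0 to 3 in the day difference of LAN-1 and 1 to 3 with time in LAN-1 DMSO. The cause of these shifts was not tested beyond there being fewer libraries. Differences between duplicates were at most weakly correlated between groups by replicate number (28 pairs of groups, r from -0.0876 to 0.103, 1 over 0.1). Sampling of reads made up most of that difference in most groups, so pairing could give small values and is not excluded. With the replicate block 9 members were called in Kelly at day 5 and 3 in the line difference. Over all genes DESeq2 called 163 against 581 (Kelly, day 5), 107 against 434 (LAN-1, day 5), 289 in the mean effect against 768 and 59 in the line difference against 220, and in the smaller comparisons 3 against 21 and 2 against 18 (Kelly and LAN-1 at day 2), 13 against 45 and 15 against 64 (day differences), 11 against 52 and 19 against 52 (time) and 0 against 3. The GC offset called 984 in Kelly at day 5, 1284 in the mean effect, 55 and 40 at day 2, 109 with time in Kelly and 19 for the line difference of time. Without 1 library the counts over all genes ran from 239 to 709 in Kelly and 139 to 735 in LAN-1 at day 5. Depth limits members of few counts such as CHAC1, DDIT3, ATF5 and ERN1: CHAC1 and ERN1 had fitted changes of -1.38 and -0.99 in Kelly at day 5 that did not pass.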
